A study of Mus musculus with 8 samples.

Results

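The genes described here activate fatty acids, carry them into mitochondria and shorten them by beta oxidation in mitochondria and peroxisomes. They were a set of 36 genes chosen by symbol for their part in the pathway, and all 36 were found among the 30153 genes listed in heart RNA. By role, 12 belong to activation and the carnitine shuttle, 18 to the mitochondrial spiral and 6 to the peroxisomal branch. The hearts came from aged C57/BL6 mice that carry Haplotype-II (Hap-II), a haplotype of the human gene for the angiotensin type 1 receptor, which relays most effects of the hormone angiotensin II. Both groups share this haplotype and the aged state. Of the 8 libraries, 4 were from aged Hap-II mice on a western diet (feed with much fat and sugar) and 4 from aged Hap-II mice with no diet named, called control below. The labels give no sex, age in months, feeding time, collection hour or promoter of the human gene, and do not tie each library to its own animal. The p-values therefore describe the spread among these 8 samples, which may in part be technical.

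Long-chain fatty acids are the main fuel of the adult heart. An acyl-CoA synthetase of the Acsl family couples them to coenzyme A, and carnitine palmitoyltransferase 1 (the muscle form Cpt1b and the liver form Cpt1a) passes the acyl group to carnitine at the outer mitochondrial membrane, a step that malonyl-CoA inhibits. Inside, Cpt2 restores the acyl-CoA, and each turn of the spiral removes acetyl-CoA through dehydrogenation, hydration, a further dehydrogenation and thiolysis. Peroxisomes shorten very long and branched chains. Many of these genes are known targets of the fatty-acid-sensing receptors of the PPAR family.

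Values are TPM (transcripts per 1000000 transcripts), which are scaled by transcript length, so that levels of different genes can be compared. The 36 genes together held 1.09% ± 0.141 of all TPM in western diet hearts and 1.00% ± 0.0331 in control hearts (SD, n = 4 per group, as for every mean below). The most abundant were Ech1, a dienoyl-CoA isomerase found in peroxisomes and mitochondria, at 1522 ± 349 TPM in western diet and 1331 ± 135 TPM in control hearts, and Hadhb, the thiolase subunit of the mitochondrial trifunctional protein, at 1321 ± 136 TPM in western diet and 1152 ± 26.7 TPM in control hearts. In all, 20 of the 36 averaged at least 100 TPM over the 8 libraries and 9 averaged under 10 TPM. The low end held Acsl3, Acsl4, Acsl5, Acad9, Acad10, Acox3, Ehhadh, Slc22a5 and Eci1. Eci1, a mitochondrial enoyl-CoA isomerase, was listed at 0 in western diet replicates 1 and 2 and in control replicates 1, 2 and 4, and at 0.882 TPM in western diet replicate 3, 1.03 TPM in western diet replicate 4 and 1.04 TPM in control replicate 3. A listed 0 can be a failed estimate, and Eci1 was the 1 member that did not reach 1 TPM in at least 4 libraries and was not tested.

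**Figure D1:**
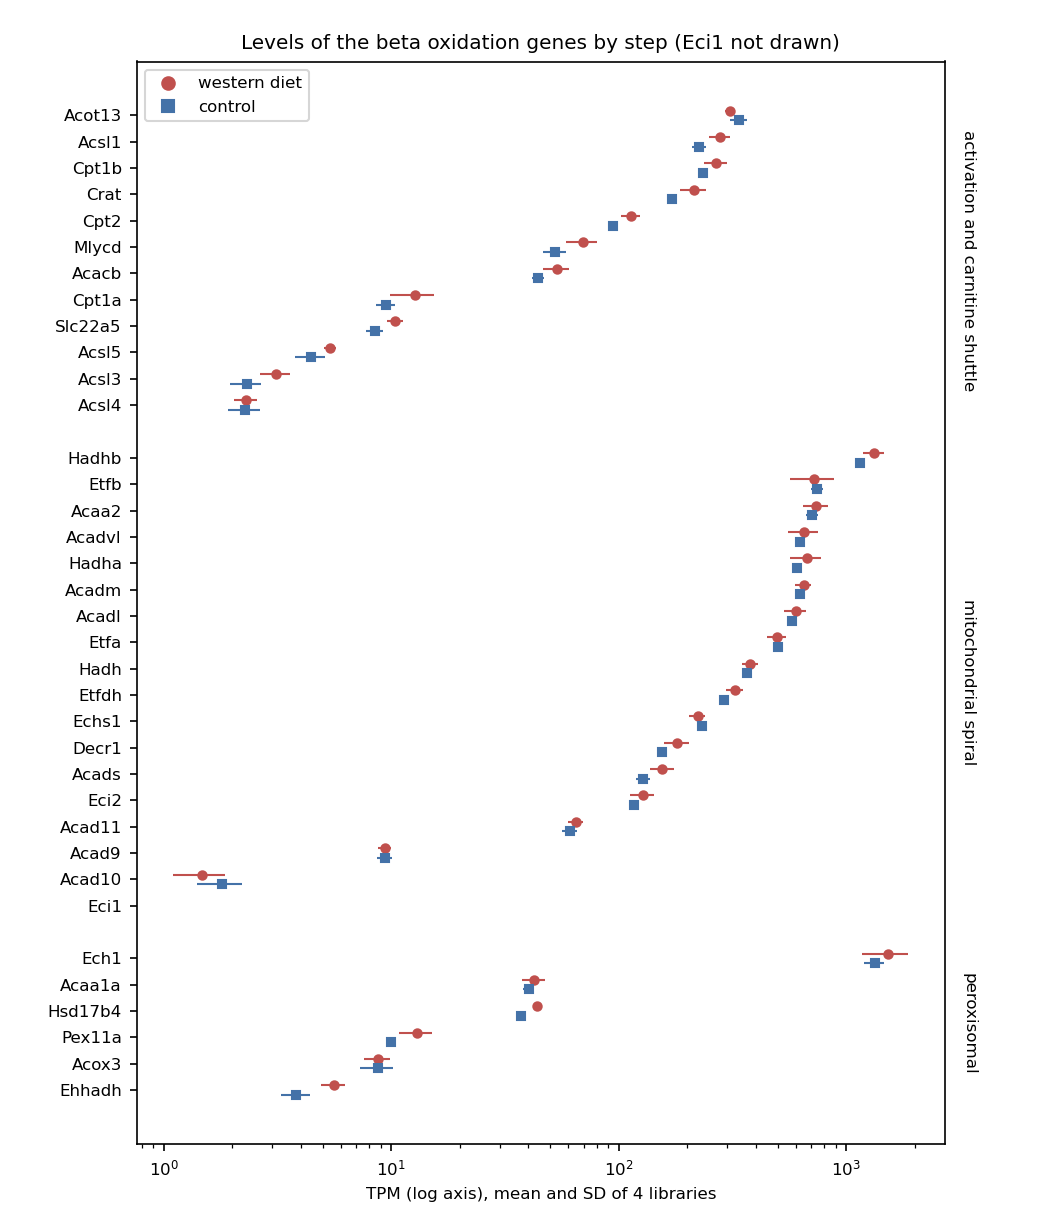
Mean TPM on a log axis, with the SD of 4 libraries as bars, for the beta oxidation genes in western diet (circles) and control hearts (squares), ordered by level within each step; Eci1 is not drawn. Ech1 and Hadhb lie highest, while Acsl3, Acsl4, Acad10 and Ehhadh lie under 10 TPM in both groups.

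Some libraries stood apart in ways that bear on these genes. Eif2s3y, on the Y chromosome, was at 22.3 TPM in western diet replicate 4 and at most 0.0231 TPM in western diet replicates 1 to 3, against 21.1 to 29.04 TPM in the controls. For those 3 libraries the absence of Y-linked transcripts and the diet cannot be told apart. The 8 cardiomyocyte markers, such as Myl2 and Tnnt2, summed to 46404, 44536, 42584 and 36234 TPM in western diet replicates 1 to 4 and to 44760.0 to 48479 TPM in controls, lowest in western diet replicate 4. Atrial Myl7 reached at least 100 TPM in 3 libraries, western diet replicate 2 and control replicates 1 and 3. The 5 kidney markers, with Kap the highest, summed to 9.18 to 79.02 TPM in western diet and 0.0717 to 0.685 TPM in control libraries. The macrophage markers summed to 107 to 176 TPM in western diet and 85.5 to 106 TPM in control libraries, and the white adipocyte markers to 1.91 to 2.46 TPM in western diet and 0.240 to 27.8 TPM in control libraries. Among 6 tested smooth muscle and pericyte markers, Tagln was lower and passed, at 10.9, 10.4, 7.92 and 10.8 TPM in western diet and 19.7, 16.2, 21.1 and 17.3 TPM in control libraries (limma adjusted p = 0.0169). Pdgfrb (10.1 to 12.1 against 13.6 to 15.8 TPM in controls) and Kcnj8 (3.20 to 5.69 against 5.74 to 7.18 TPM) were also lower without overlap. Myh11 had the lower mean too, and 2 of the 6, Acta2 and Rgs5, had the higher. Acta2, an actin of smooth muscle, was at 117, 70.98, 87.1 and 47.9 TPM in western diet and 30.7, 26.3, 39.2 and 37.4 TPM in control libraries, with no overlap (limma adjusted p = 0.0630). The skeletal muscle markers, among them Acta1, which heart also expresses, summed to 143 to 452 TPM in western diet and 74.5 to 131 TPM in control libraries. Acta1 made up most of that sum, at 137 to 448 TPM in western diet and 70.3 to 126 TPM in control libraries. Without overlap, Acta1 and Tnnt3 (0.4995 to 1.21 against 0.219 to 0.493 TPM in controls) were higher. Mylpf (0 to 0.364 against 0.651 to 1.42 TPM) and Pvalb (0 to 0.788 against 1.04 to 1.13 TPM) were lower without overlap. Tnni2, Myh4 and Myh1 overlapped. How far these transcripts enter the values below was not tested. In bulk heart RNA, fewer cells of a type and less RNA per cell cannot be told apart.

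Western diet hearts were compared with controls to see how the diet relates to these transcripts. None of the 35 tested members passed an adjusted p of 0.05 (limma on log2(TPM + 1), adjusted over all 10969 genes tested), where 0.301% of all genes did. The smallest adjusted p belonged to Ehhadh (limma adjusted p = 0.165). At an unadjusted p under 0.05, 12 members had the higher mean in western diet hearts and 0 the lower, where 9.2% of all genes were higher and 2.51% lower at that level. These 12 were Ehhadh, Mlycd, Hsd17b4, Acsl1, Crat, Pex11a, Cpt2, Acads, Slc22a5, Acsl3, Acacb and Cpt1a. The median log2 fold change was 0.15 over the 35 members, 0.26 for activation and the carnitine shuttle, 0.055 for the spiral and 0.20 for the peroxisomal genes, against 0.061 over all genes tested. The spiral median thus lay at that of all genes. Of the 35, 30 had the higher mean of log2 values in western diet hearts, where 66.4% of all genes did; after median-of-ratios scaling 21 of the 35 did, where 48.5% of all genes did. On that scale the median was 0.070 over the members and -0.024 over the spiral, against -0.0066 over all genes. The members with a lower mean as deposited were Acot13, Acad10, Echs1, Etfa and Etfb.

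In 5 members the 4 western diet libraries all lay above the 4 controls: Acsl3, Cpt2, Ehhadh, Hsd17b4 and Pex11a. Over all genes 4.85% were separated in this direction and 1.75% in the other, in which no member was. In 14 further members western diet replicates 1 to 3 lay above every control and replicate 4 did not, where 8.17% of all genes showed this pattern. Of those 14, 7 belong to activation and the carnitine shuttle, 7 to the spiral and 0 to the peroxisomal branch.

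**Figure D2:**
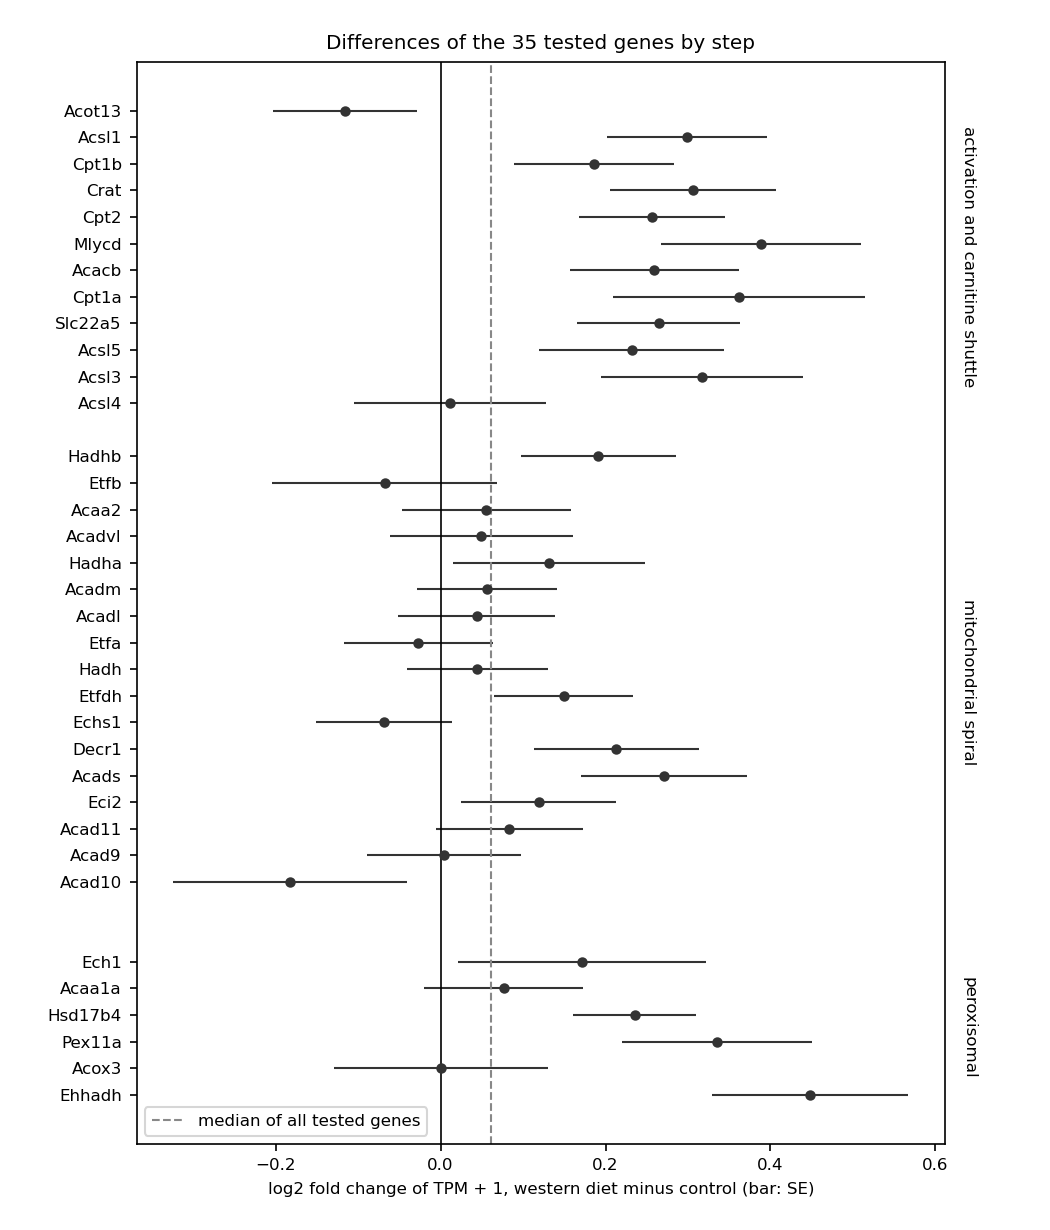
Log2 fold change of TPM + 1 (western diet minus control, bars: SE) for the 35 tested members by step, with the median of all tested genes as a dashed line. Most activation and shuttle genes lie right of the dashed line, the spiral genes lie on both sides of it, and Ehhadh is farthest right.

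Activation was led by Acsl1, the main long-chain acyl-CoA synthetase of heart. Acsl1 (ENSMUSG00000018796, chromosome 8, 46471037 to 46536051 of GRCm38) was at 272, 286, 313 and 241 TPM in western diet replicates 1 to 4, against 217, 208, 234 and 243 TPM in control replicates 1 to 4. Replicates 1 to 3 of the western diet exceeded every control, and replicate 4 lay just under the highest control. The means were 278 ± 30.1 TPM in western diet and 225 ± 15.7 TPM in control hearts (log2 fold change 0.30 with SE 0.10, limma adjusted p = 0.252). Acsl1 made up 96.2% ± 0.334 of the TPM of the 4 Acsl genes in western diet hearts and 96.1% ± 0.370 in control hearts, a difference smaller than either SD. The share of Acsl4 was 0.804, 0.785, 0.810 and 0.782% in western diet libraries and 0.893, 0.898, 1.11 and 0.971% in control libraries, lower in all 4 western diet libraries. Acsl3, a synthetase of the endoplasmic reticulum and lipid droplets, was at 2.80, 3.83, 2.83 and 3.04 TPM in western diet and 2.64, 1.90, 2.60 and 2.11 TPM in control libraries (log2 fold change 0.32 with SE 0.12, limma adjusted p = 0.351). The groups did not overlap, at a level of a few TPM. Acsl5, found at mitochondria and the endoplasmic reticulum, was at 5.84, 5.26, 5.20 and 5.21 TPM in western diet and 4.21, 3.69, 5.29 and 4.64 TPM in control libraries (log2 fold change 0.23 with SE 0.11, limma adjusted p = 0.456). The arachidonate-preferring Acsl4, which is X-linked, was at 2.28, 2.33, 2.62 and 1.96 TPM in western diet and 2.02, 1.93, 2.73 and 2.44 TPM in control libraries (log2 fold change 0.012 with SE 0.12, limma adjusted p = 0.981). Its fold change was the smallest in size of the 4 synthetases.

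Cpt1b, Cpt1a, Cpt2, Crat and Slc22a5 of the carnitine shuttle had higher means in western diet hearts, and in each of them western diet replicate 4 was the lowest of its group. Cpt1b (chromosome 15, 89416405 to 89425863), the main carnitine palmitoyltransferase 1 of heart, was at 273, 295, 283 and 223 TPM in western diet replicates 1 to 4, against 230.4, 228, 232 and 249 TPM in control replicates 1 to 4. Western diet replicate 4 was the lowest of all 8 libraries and the other 3 were the highest (log2 fold change 0.19 with SE 0.10, limma adjusted p = 0.490). Cpt1a (chromosome 19, 3322334 to 3385733), the form best known from liver, was at 13.7, 13.9, 14.6 and 8.55 TPM in western diet and 8.40, 9.07, 10.2 and 10.3 TPM in control libraries. Its western diet replicates 1 to 3 lay above every control, and replicate 4 lay below 3 of the 4 controls (log2 fold change 0.36 with SE 0.15, limma adjusted p = 0.396). Cpt1b made up 95.5% ± 0.549 of the TPM of both forms in western diet hearts and 96.1% ± 0.290 in control hearts. The liver form was thus a small part of the total in each library.

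Cpt2, the inner membrane transferase, was at 119, 117, 118 and 97.3 TPM in western diet and 96.3, 96.8, 87.7 and 95.6 TPM in control libraries (log2 fold change 0.26 with SE 0.088, limma adjusted p = 0.283). Its groups did not overlap, and replicate 4 of the western diet lay just above the highest control. Crat, carnitine acetyltransferase, which buffers acetyl-CoA against carnitine, was at 222, 243, 211 and 177 TPM in western diet and 172, 162, 172 and 180.2 TPM in control libraries (log2 fold change 0.31 with SE 0.10, limma adjusted p = 0.263). Here western diet replicate 4 lay among the controls. Slc22a5 (OCTN2), the carnitine importer of the cell membrane, was at 11.2, 10.3, 10.8 and 9.25 TPM in western diet and 7.89, 9.30, 8.83 and 7.86 TPM in control libraries (log2 fold change 0.26 with SE 0.10, limma adjusted p = 0.331). Its western diet replicate 4 lay just under control replicate 2, the highest control.

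A pair of enzymes of opposite action sets malonyl-CoA, the inhibitor of carnitine palmitoyltransferase 1, and both had higher means in western diet hearts. Mlycd, malonyl-CoA decarboxylase, which removes it, was at 81.3, 75.5, 61.4 and 59.5 TPM in western diet and 60.5, 54.1, 46.7 and 48.99 TPM in control libraries. Western diet replicates 1 to 3 were above every control, the third narrowly so, and replicate 4 was just under control replicate 1 (log2 fold change 0.39 with SE 0.12, limma adjusted p = 0.230). Acacb, the acetyl-CoA carboxylase at mitochondria that makes malonyl-CoA, was at 60.7, 57.2, 49.3 and 45.9 TPM in western diet and 45.7, 40.1, 44.6 and 46.2 TPM in control libraries (log2 fold change 0.26 with SE 0.10, limma adjusted p = 0.358). The ratio of Mlycd to Acacb TPM was 1.30 ± 0.0408 in western diet and 1.20 ± 0.163 in control hearts, a difference smaller than the control SD. Acot13, a thioesterase that splits long-chain acyl-CoA back to the free acid, had the lower mean in western diet hearts, with overlapping groups (log2 fold change -0.12 with SE 0.087, limma adjusted p = 0.657). It was at 329, 317, 297 and 294 TPM in western diet and 364, 358, 313 and 309 TPM in control libraries, the highest level among the members of this step.

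**Figure D3:**
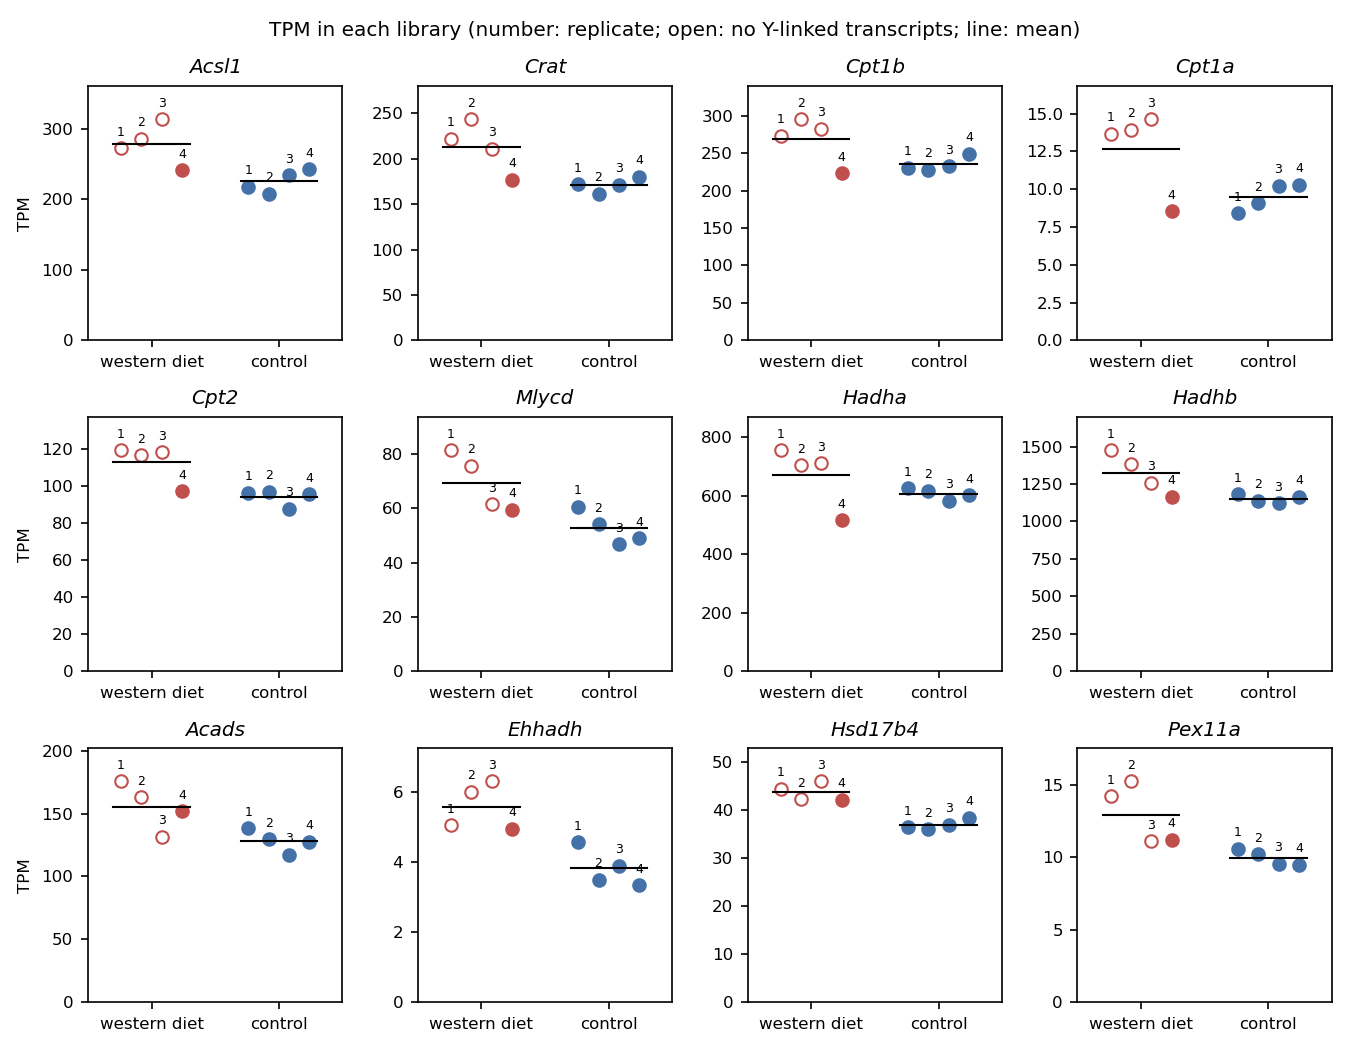
TPM of 12 members in each library, western diet left of control in each panel, with the replicate number above each point, the group mean as a line and open circles for libraries without Y-linked transcripts. Western diet replicate 4 lies among or below the controls for Cpt1a, Cpt1b, Crat and Hadha, and all 4 western diet libraries lie above the controls for Ehhadh, Hsd17b4 and Pex11a.

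The first dehydrogenation of the spiral is made by acyl-CoA dehydrogenases of graded chain length. Those for very long (Acadvl), long (Acadl) and medium chains (Acadm) differed little in their means. Acadvl was at 523 to 761 TPM in western diet and 593 to 649 TPM in control libraries (log2 fold change 0.050 with SE 0.11, limma adjusted p = 0.906). Acadl was at 502 to 636 TPM in western diet and 565 to 610.02 TPM in control libraries (log2 fold change 0.044 with SE 0.10, limma adjusted p = 0.901), and Acadm at 593 to 711 TPM in western diet and 607 to 657 TPM in control libraries (log2 fold change 0.057 with SE 0.085, limma adjusted p = 0.849). For Acadvl and Acadl western diet replicate 4 was the lowest of all 8 libraries and the other 3 were the highest. Acads, for short chains (chromosome 5, 115110299 to 115119346), had the smallest p of the spiral members. It was at 176, 163, 131 and 152 TPM in western diet replicates 1 to 4 and 138, 129, 117 and 128 TPM in control replicates 1 to 4, with only western diet replicate 3 inside the control range (log2 fold change 0.27 with SE 0.10, limma adjusted p = 0.328). Acad9, which also helps to assemble complex I, Acad10 and Acad11 overlapped between the groups, with log2 fold changes of 0.0047 (SE 0.093), -0.18 (SE 0.14) and 0.084 (SE 0.089).

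The trifunctional protein, which carries out the last 3 reactions on long chains, is built from Hadha and Hadhb, whose genes lie head to head on chromosome 5. GENCODE vM21 on GRCm38 puts 85 bases between their annotated starts, and the stretch is shown because a single short interval faces both genes. It is read on the strand of Hadhb, with capitals for the 2 GC boxes (GGGCGG), the motif of SP family factors.
Hadha-Hadhb interval, chr5:30155163-30155247: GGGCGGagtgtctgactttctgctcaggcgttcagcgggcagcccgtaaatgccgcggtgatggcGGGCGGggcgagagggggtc
Hadha, the subunit for hydration and the next dehydrogenation, was at 755, 703, 709.6 and 516 TPM in western diet replicates 1 to 4 and 625, 617, 583 and 601 TPM in control replicates 1 to 4 (log2 fold change 0.13 with SE 0.12, limma adjusted p = 0.709). Hadhb was at 1476, 1382, 1259.6 and 1166 TPM in western diet and 1183, 1139.7, 1122 and 1165 TPM in control libraries (log2 fold change 0.19 with SE 0.094, limma adjusted p = 0.463). For both genes western diet replicates 1 to 3 were the 3 highest libraries; replicate 4 was the lowest of all for Hadha and lay within the control range for Hadhb. Hadhb over Hadha was 1.95, 1.97, 1.78 and 2.26 in western diet replicates 1 to 4 and 1.85 to 1.94 in controls, highest in western diet replicate 4.

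The matrix enzymes for shorter chains had nearly equal means in both groups. Echs1, the short-chain hydratase, was at 222 ± 17.7 TPM in western diet and 232 ± 9.36 TPM in control hearts. Hadh, the short-chain hydroxyacyl-CoA dehydrogenase, was at 378 ± 31.99 TPM in western diet and 366 ± 16.01 TPM in control hearts, and the thiolase Acaa2 at 737 ± 90.4 TPM in western diet and 706 ± 40.7 TPM in control hearts. The limma adjusted p values of the 3 were 0.797, 0.887 and 0.884. Unsaturated fatty acids need auxiliary enzymes, of which Decr1, the dienoyl-CoA reductase, was at 207, 182, 182 and 150.3 TPM in western diet and 154, 159, 145 and 160.4 TPM in control libraries (log2 fold change 0.21 with SE 0.10, limma adjusted p = 0.442). Eci2, an enoyl-CoA isomerase of mitochondria and peroxisomes, was at 106 to 142 TPM in western diet and 115 to 119 TPM in control libraries (log2 fold change 0.12 with SE 0.094, limma adjusted p = 0.671). Both showed western diet replicates 1 to 3 above all controls and replicate 4 not.

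Electrons of the first dehydrogenation pass through the flavoprotein ETF and its dehydrogenase to ubiquinone. The ETF subunits Etfa and Etfb were at 494 ± 48.4 TPM and 722 ± 157 TPM in western diet hearts, against 502 ± 22.2 TPM and 746 ± 47.4 TPM in control hearts, with fold changes of -0.027 (SE 0.090) and -0.068 (SE 0.14) on the log2 scale. Etfdh, the membrane-bound dehydrogenase, was at 339, 335, 337 and 283 TPM in western diet and 289, 283, 287 and 304 TPM in control libraries (log2 fold change 0.15 with SE 0.084, limma adjusted p = 0.531). Its western diet replicates 1 to 3 lay close together and above every control, while replicate 4 was narrowly the lowest library.

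The peroxisomal members included the largest log2 fold change of the 36. Ehhadh (chromosome 16, 21761287 to 21787807), the bifunctional enzyme of peroxisomal hydration and dehydrogenation and a known PPARA target in mouse liver, was at 5.05, 6.01, 6.31 and 4.95 TPM in western diet replicates 1 to 4, against 4.58, 3.50, 3.90 and 3.34 TPM in control replicates 1 to 4. All 4 western diet libraries exceeded the highest control. The ratio of the means was 1.46 (log2 fold change 0.45 with SE 0.12, limma adjusted p = 0.165). Ehhadh is also abundant in kidney and liver. The kidney marker sum was 9.18 to 79.02 TPM in western diet and 0.0717 to 0.685 TPM in control libraries. It was thus higher in western diet without overlap, as Ehhadh was. Within the western diet group it was highest in replicate 4, where Ehhadh was the lowest. The 6 liver markers summed to 2.29 to 3.72 TPM in western diet and 1.43 to 17.9 TPM in control libraries, highest in control replicate 3, and Alb, the main liver transcript, was at 0.113 to 0.751 TPM in western diet and 0 to 6.83 TPM in control libraries. The part of kidney and liver transcripts in Ehhadh was not tested.

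Hsd17b4, the other bifunctional enzyme, needed for branched chains, was at 44.5, 42.4, 46.1 and 42.2 TPM in western diet and 36.5, 36.1, 36.97 and 38.5 TPM in control libraries (log2 fold change 0.24 with SE 0.075, limma adjusted p = 0.238). All 4 western diet libraries lay above the highest control, and the spread within each group was narrow. Pex11a, a membrane protein that promotes division of peroxisomes, was at 14.2, 15.2, 11.1 and 11.2 TPM in western diet and 10.6, 10.2, 9.55 and 9.49 TPM in control libraries (log2 fold change 0.34 with SE 0.12, limma adjusted p = 0.281). Western diet replicates 1 and 2 stood well above the controls and replicates 3 and 4 only slightly. Ech1 was at 1989, 1563, 1353 and 1181 TPM in western diet and 1409, 1469, 1168 and 1278 TPM in control libraries, a wide spread with overlapping groups (log2 fold change 0.17 with SE 0.15, limma adjusted p = 0.706). The thiolase Acaa1a (37.6 to 47.3 TPM in western diet, 37.5 to 42.5 TPM in control) and the oxidase Acox3, which acts on branched chains (7.55 to 10.2 TPM in western diet, 7.30 to 10.3 TPM in control), overlapped, with log2 fold changes of 0.076 (SE 0.10) and 0.00090 (SE 0.13).

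Western diet replicate 4, the one of its group with Y-linked transcripts, often lay apart from the other 3. It was the lowest of the 4 western diet libraries for 29 of the 35 tested members, where it was so for 56.3% of all tested genes. It was the lowest of all 8 libraries for 14 members. The share of all genes is not given for that count, so it cannot be read as particular to the members. Without it, 1 member passed over all genes, Cpt1a (log2 fold change 0.53, SE 0.10, limma adjusted p = 0.0455), where 0.693% of all genes passed as higher and 0.866% in either direction. At an unadjusted p under 0.05, 18 of the 35 members were then higher, against 14.3% of all genes. The median log2 fold change was 0.24 over the members and 0.11 over all genes.

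When presence of Y-linked transcripts was added to the model, the diet estimate came from western diet replicate 4 set against the 4 controls. With this term no member passed, where 0.492% of all genes did, and no member had an unadjusted p under 0.05 (limma; 2.39% of all genes were higher at that level). Of the 35 members 14 had a positive diet estimate, with a median of -0.070 against -0.069 over all genes. Estimates for Cpt1a and Cpt1b changed sign to -0.13 (SE 0.14) and -0.071 (SE 0.11). The 5 highest estimates were those of Ehhadh, Acsl3, Acads, Acsl5 and Hsd17b4, at 0.31 (SE 0.18), 0.29 (SE 0.20), 0.25 (SE 0.16), 0.19 (SE 0.18) and 0.19 (SE 0.11). Without the 3 libraries with atrial transcripts no member passed either, where 0.0456% of all genes did, and 2 had an unadjusted p under 0.05 as higher, where 4.58% of all genes did (limma).

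**Figure D4:**
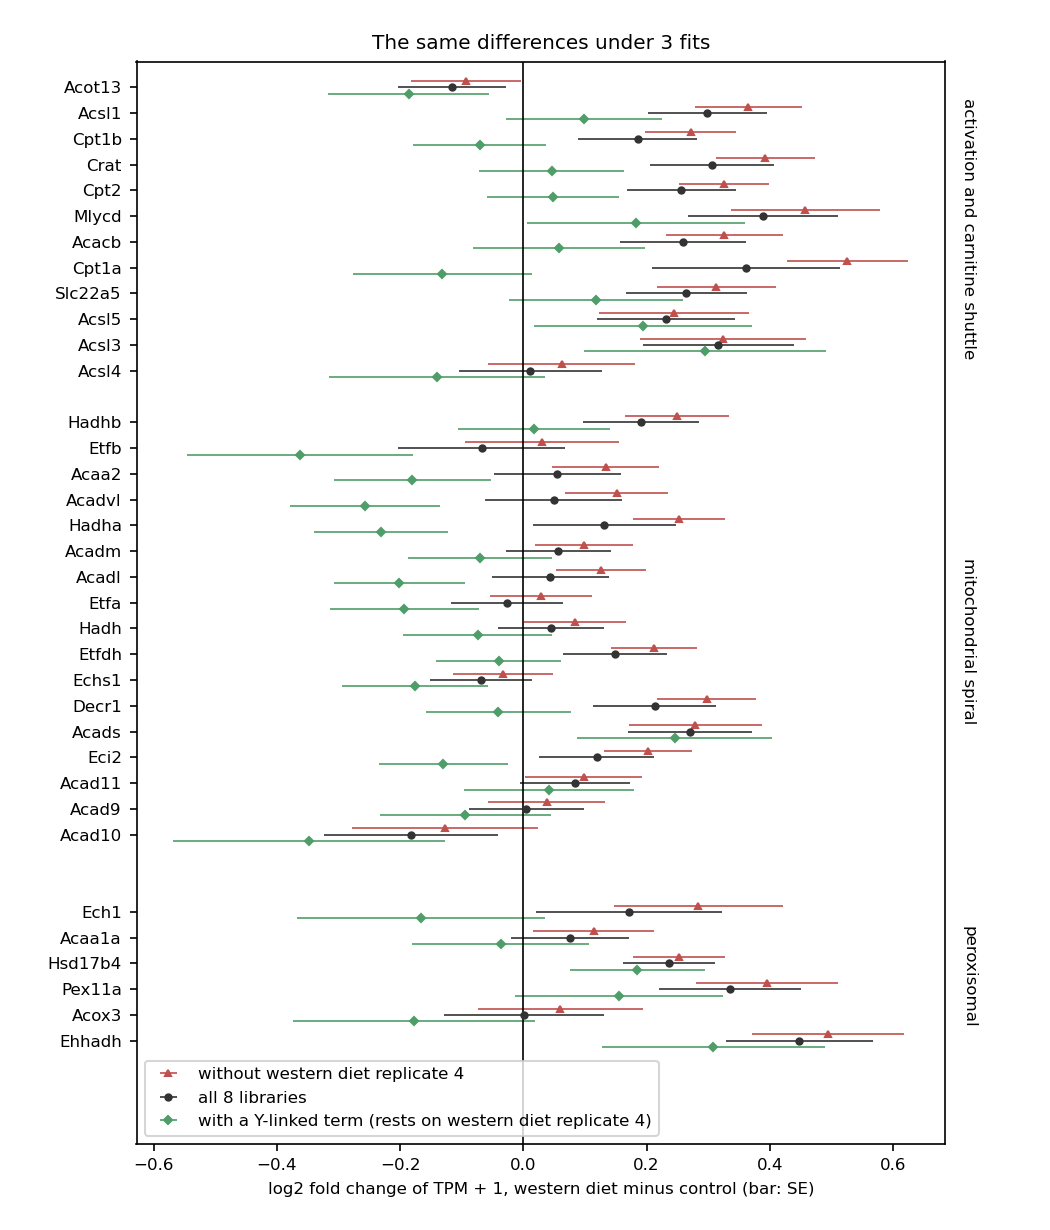
Log2 fold change of TPM + 1 (western diet minus control, bars: SE) of the 35 tested members without western diet replicate 4 (triangles), with all 8 libraries (circles) and with a term for Y-linked transcripts (diamonds). For each of the 35 the triangle lies right of the circle and the diamond left of it, with the 3 estimates closest for Acads, Acsl3 and Acsl5.

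For the sum of the members set against cardiomyocyte transcripts, western diet replicate 4 did not stand apart. The 36 members summed to 11748, 10682, 9991 and 8711 TPM in western diet replicates 1 to 4, against 9709, 9665, 9045 and 9646 TPM in control replicates 1 to 4, with replicate 4 of the western diet the lowest of all. As a percentage of the summed cardiomyocyte markers the same sums were 25.3, 23.98, 23.5 and 24.04 in western diet and 21.6, 20.9, 20.2 and 19.9 in control libraries. On this scale all 4 western diet libraries lay above all 4 controls. Single members differed in this. Cpt1a was at 0.0236% of the marker sum in western diet replicate 4 and 0.0294 to 0.0344% in replicates 1 to 3. Hadha was at 1.43% in replicate 4 and 1.58 to 1.67% in replicates 1 to 3. For other members replicate 4 became the highest western diet library, among them Acot13, Acads, Acadm, Echs1, Hadh, Hadhb and Hsd17b4. Acot13 was at 0.812% in replicate 4 and 0.697 to 0.712% in replicates 1 to 3. Acads was at 0.419% in replicate 4 and 0.309 to 0.379% in replicates 1 to 3. The sum hides such differences in both directions. For Cpt2, Acadl and Etfdh replicate 4 lay within the range of replicates 1 to 3. The sums for activation and the carnitine shuttle were 3.16% ± 0.105 of the marker sum in western diet and 2.57% ± 0.0940 in control hearts. Those of the spiral were 17.2% ± 0.417 in western diet and 14.96% ± 0.403 in control hearts, and those of the peroxisomal genes 3.83% ± 0.499 in western diet and 3.10% ± 0.310 in control hearts. Most of the peroxisomal sum was Ech1, at 1522 of 1635 TPM in western diet and 1331 of 1431 TPM in control hearts on average. That sum therefore mainly follows Ech1.

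With all TPM rescaled to these markers, a choice made after seeing the data, 13 of 35 members passed as higher, where 3.8% of all genes did so and 3.91% passed in either direction. They were Acsl1, Crat, Cpt1a, Cpt1b, Cpt2, Mlycd and Acacb of activation and the shuttle, Hadhb, Decr1 and Etfdh of the spiral, and Ehhadh, Hsd17b4 and Pex11a of the peroxisomal branch. Crat had the smallest p (log2 fold change 0.43, SE 0.071, limma adjusted p = 0.0184), and Cpt1b was among them (log2 fold change 0.31, SE 0.068, limma adjusted p = 0.0371). Groups no longer overlapped for 24 of 35 members, all higher in western diet, where 15.2% of all genes were so separated. The rescaling moved the median of all genes by 0.11 on the log2 scale, so it raised most genes. Relative to the median of all genes, the members' median was 0.11 on this scale and 0.088 as deposited. Among all genes past the threshold 417 were higher and 13 lower after rescaling, against 25 higher and 8 lower as deposited and 31 higher and 18 lower with median-of-ratios scaling. Several of the 8 markers had lower means in western diet hearts, Tnnt2 and Tnni3 among them, and how far the denominator sets the result was not tested.

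**Figure D5:**
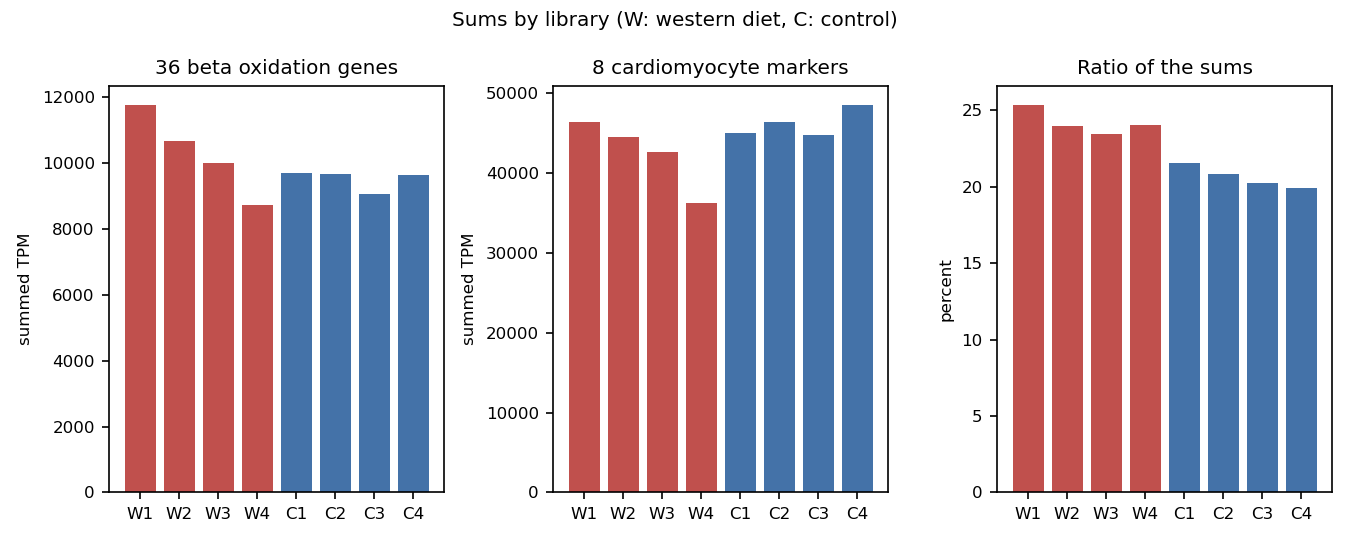
Bars of the summed TPM of the 36 beta oxidation genes, the summed TPM of 8 cardiomyocyte markers and the ratio of the sums in percent, for western diet replicates (W1 to W4) left of control replicates (C1 to C4). W4 is the lowest bar in the first and middle panels, and all W bars exceed all C bars in the ratio.

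Other genes of the same pathway were read from a wider list of 108, of which 107 were found and 91 tested. None passed over all genes in either direction (limma), and 8 were higher and 3 lower at an unadjusted p under 0.05, shares near the 9.2% and 2.51% of all genes. The median log2 fold change was 0.057 over the 91, near that of all genes. Closest to the threshold was Acot2, a mitochondrial thioesterase and known PPARA target, at 40.9, 40.1, 41.2 and 28.8 TPM in western diet and 25.1, 24.7, 22.02 and 26.02 TPM in control libraries (log2 fold change 0.59 with SE 0.12, limma adjusted p = 0.0731). Without western diet replicate 4 it passed (limma adjusted p = 0.00380). Slc25a20, the carnitine-acylcarnitine carrier between Cpt1b and Cpt2, was at 143, 134, 167 and 114 TPM in western diet and 114, 109.7, 101 and 105 TPM in control libraries (log2 fold change 0.36 with SE 0.11, limma adjusted p = 0.221). Cat, the catalase that removes peroxisomal hydrogen peroxide, was at 96.6 ± 6.58 TPM in western diet and 76.7 ± 3.73 TPM in control hearts, and its groups did not overlap (log2 fold change 0.33 with SE 0.081, limma adjusted p = 0.137). In the other direction Gcdh, a dehydrogenase of lysine and tryptophan breakdown that also feeds ETF, was at 33.4 ± 2.96 TPM in western diet and 40.7 ± 0.885 TPM in control hearts (log2 fold change -0.28 with SE 0.085, limma adjusted p = 0.215). Etfrf1, which regulates ETF, was at 26.8, 27.8, 27.3 and 34.98 TPM in western diet and 35.2, 35.3, 35.4 and 36.1 TPM in control libraries (log2 fold change -0.28 with SE 0.10, limma adjusted p = 0.278), with western diet replicate 4 next to the controls. Abcd2, a peroxisomal importer of very long chains, was near 1 TPM, at 0.737 ± 0.147 TPM in western diet and 1.24 ± 0.171 TPM in control hearts (log2 fold change -0.36 with SE 0.11, limma adjusted p = 0.212). Among 21 tested regulators the smallest p values were those of Esrrg (9.11 ± 1.03 TPM in western diet, 7.27 ± 1.44 TPM in control, limma adjusted p = 0.422) and Rxrb (18.8 ± 2.34 TPM in western diet, 15.9 ± 1.07 TPM in control, limma adjusted p = 0.437), an orphan receptor of oxidative muscle and a PPAR partner.

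Promoter windows from RefSeq on GRCm38, 250 bases before to 50 after each start, were available for 29 of the 36 members (30 windows). They were searched on both strands for the binding motif of PPAR with RXR, called DR1 (AGGTCA given 2 times with 1 base between), for TNAAGGTCA, bound by oestrogen-related receptors, and for the core AGGTCA that lies within both. No member window held the DR1 letters, which 0.0396% of 32817 mouse windows did, and none held TNAAGGTCA, which 1.28% did. With shares this low most sets of 30 windows would hold neither, so their absence tells little about the members. Only exact letters were searched. The core AGGTCA was in 5 member windows (Acadm, Acacb, Echs1, Acadvl and Cpt1a), against 16.3% of all windows, a similar share. GGGCGG was in 22 of 30, against 35.6% of all windows, and CCAAT in 14 of 30, against 37.4%. Those letters outside the windows were not searched. The stretches around the core, in capitals, are shown for the 3 genes where it lies before the RefSeq start of the window with 20 bases on either side. For Cpt1a this RefSeq start lies inside the GENCODE span of the gene (3322334 to 3385733). The Cpt1a stretch is thus within the gene by GENCODE.
Cpt1a, chr19:3323187-3323232, plus strand: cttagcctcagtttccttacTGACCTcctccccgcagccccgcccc
Acadvl, chr11:70015490-70015535, minus strand: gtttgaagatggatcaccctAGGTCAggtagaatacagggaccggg
Echs1, chr7:140116479-140116524, minus strand: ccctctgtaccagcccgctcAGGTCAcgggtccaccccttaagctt
In Cpt1a the core is on the opposite strand to the gene, so that its reverse complement is printed. The 3 genes had different values, with log2 fold changes of 0.36, 0.050 and -0.069.

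Some members share sequence with other genes, so that reads could be split between them. Of all stretches of 31 bases in their GENCODE vM21 transcripts, counted on either strand, 79.7% of those of Cpt1b, 49.9% of those of Etfb, 37.8% of those of Slc22a5 and 33.2% of those of Acadvl also occur in another gene. For Slc22a5 the main partner was Slc22a21, at 0.489 TPM in western diet and 0.3945 TPM in control hearts on average, and for Acadvl it was Dvl2, at 1.29 TPM in western diet and 1.495 TPM in control hearts. The partners of Cpt1b and Etfb were predicted transcripts not used here. Acad10 shares 22.9% with Acad12, which was at 35.7 TPM in western diet and 31.6 TPM in control hearts, and Acot2 shares 29.9% with Acot1, at 2.04 TPM in western diet and 0.92 TPM in control hearts. Values of Acad10 and Acot2 are therefore uncertain in how they divide with their neighbours. The 2 cases differ in level. Acad10, at 1.48 TPM in western diet and 1.81 TPM in control hearts, was far below Acad12. Acot2, at 37.8 TPM in western diet and 24.5 TPM in control hearts, was far above Acot1.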

How the data were processed

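RNA of 8 heart libraries, 4 per group, was measured. Per the labels' protocols, RNA was column-purified and stranded libraries were made from polyadenylated RNA. The authors deposited gene-level TPM. Per the submitters' processing notes the tools included kallisto and DESeq2 and the build was GRCm38. Tool versions and annotation release were not given in the sources used here. Columns sum to 941318 to 953448. TPM is relative and keeps no read depth, so no counting interval is given.

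Identifiers were named with GENCODE vM21 (29732 of 30153). Groups follow the labels. Replicate numbers follow accession order, and no pairing was used. A gene was tested when at least 4 libraries reached 1 TPM, which left 10969. The test was limma 3.58.1 (R 4.3.3) on values of log2(TPM + 1), with moderated variances that follow a mean trend, two-sided p-values and Benjamini-Hochberg adjustment. Fold changes on that scale understate changes of low genes. TPM values are not counts, so no count test was used. The test was tried on 10 simulated sets in which 200 of 10969 genes were altered. It recovered 57.9% of 1.5-fold, 89.3% of 2-fold and 98.2% of 4-fold changes in TPM + 1, and 4.5% of calls were false. Noise was drawn independently for each gene, with no shift shared within a library, so the false share need not hold in these data. Changes under 1.5-fold were not simulated. All tested members lay under that, with Ehhadh the highest at a ratio of means of 1.46, so recovery of such differences is not known.

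The members, lists, tests and alternatives were chosen with earlier results of these data known. By rule, full values are given for members past the threshold, the 12 of smallest p, the highest of each step and the Acsl and Cpt1 families, and for the 2 genes of smallest p in each of 4 groups of the wider list. Cardiomyocyte marker scaling was added after the data were seen. The other alternatives were pseudocounts of 0.1 and 0.5 TPM, dropping the filter, a filter on the mean (5 TPM), median-of-ratios and mitochondria-free scaling, no trend, a Y-linked term (Eif2s3y of at least 1 TPM), exclusion of libraries with Myl7 of at least 100 TPM, an adjusted p of 0.10, and leaving out each library. Tables and figures used Python 3.11.15, pandas 2.3.3 and matplotlib 3.10.9.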

Additional observations from a re-analysis of the deposited data

Results flagged for a closer look

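Dixon's 95% limit was applied to the gap between the highest or lowest library and the next, over the range. Among 72 sets of 4 libraries (36 genes in each group), 8 passed this limit. For a single set chance gives about 1 in 20. The 72 sets share the same 8 libraries, so that rate gives no expected count for them. The share over all genes is not given, so the count cannot be read as particular to the members. In 4 of the 8 the library was western diet replicate 4, at the low end. Cpt1a was at 8.55 TPM in western diet replicate 4, while the other 3 were at 13.7 to 14.6 TPM. Cpt2 was at 97.3 TPM in western diet replicate 4, while the other 3 were at 117 to 119 TPM. Acadl was at 502 TPM in western diet replicate 4, while the other 3 were at 628 to 636 TPM. Etfdh was at 283 TPM in western diet replicate 4, while the other 3 were at 335 to 339 TPM. The other sets were scattered. Acsl5 was at 5.84 TPM in western diet replicate 1, while the other 3 were at 5.20 to 5.26 TPM. Among controls, Cpt2 was at 87.7 TPM in control replicate 3, while the other 3 were at 95.6 to 96.8 TPM. Acadl was at 610.02 TPM in control replicate 4, while the other 3 were at 565 to 572 TPM. Eci1 was at 1.04 TPM in control replicate 3 and listed at 0 in the other 3 controls, so that the zeros alone put it past the limit.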

How the results depend on the processing

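Of the 43 log2 fold changes given (35 members and 8 other genes), the 43 kept their direction and stayed short of the threshold with pseudocounts of 0.1 and 0.5 TPM, with no filter and without an intensity trend, as did the 37 left by a mean of at least 5 TPM. With mitochondria-free scaling Acot2 alone passed (adjusted p = 0.0493). Signs turned after median-of-ratios scaling for Acsl4 -0.042, Acadvl -0.030, Acadl -0.036, Acadm -0.023, Acad9 -0.067, Hadh -0.035, Acaa2 -0.024, Acox3 -0.070 and Acaa1a -0.0016; with the Y-linked term for Acsl4 -0.14, Cpt1a -0.13, Cpt1b -0.071, Acadvl -0.26, Acadl -0.20, Acadm -0.070, Acad9 -0.095, Hadha -0.23, Hadh -0.074, Acaa2 -0.18, Eci2 -0.13, Decr1 -0.041, Etfdh -0.040, Acox3 -0.18, Acaa1a -0.037 and Ech1 -0.17; without the libraries with atrial transcripts for Acadvl -0.00070, Acadl -0.0091 and Hadh -0.019; and with cardiomyocyte marker scaling for Acot13 0.0096, Echs1 0.057, Etfa 0.10 and Etfb 0.058. Leaving out 1 library at a time turned signs in the ranges Acsl4 -0.040 to 0.075, Acadvl -0.028 to 0.15, Acad9 -0.027 to 0.047, Acaa2 -0.012 to 0.13, Etfa -0.080 to 0.029, Etfb -0.20 to 0.030 and Acox3 -0.072 to 0.077. None of these passed the threshold, and the cause was not tested. The count of members called was 0 in every planned setting except without western diet replicate 4, where it was 1 (range 0 to 1 over left-out libraries), and was 13 with cardiomyocyte marker scaling. The count over all genes, 33, was 5 with no filter, 15 at a mean of at least 5 TPM, 54 with the Y-linked term, 5 without the libraries with atrial transcripts, 95 at an adjusted p under 0.10, 430 with cardiomyocyte marker scaling and 8 to 95 when 1 library was left out. The lower counts with fewer libraries come with fewer samples, and no filter adds genes to the test. No paired analysis was possible because the labels give no replicate numbers shared between the groups. TPM keeps no depth, so counting error is unknown.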

Other observations

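Some low genes of the wider list were highest in western diet replicate 4, the library with the most kidney marker transcripts. Slc27a2, a synthetase and importer of very long chains that is abundant in kidney and liver, was at 0.378, 0.888, 1.02 and 2.41 TPM in western diet replicates 1 to 4, against 0, 0.0294, 0.385 and 0.0324 TPM in control replicates 1 to 4. Acot12, an acetyl-CoA thioesterase, was at 0.205, 0.0730, 0.0627 and 0.474 TPM in western diet and 0.0255, 0.0133, 0.0145 and 0 TPM in control libraries. A different pattern was seen for Prkaa1, a catalytic subunit of the kinase AMPK. Prkaa1 was at 1.11, 2.37 and 1.04 TPM in western diet replicates 1 to 3 and near 0 elsewhere, at 0.000306 TPM in western diet replicate 4 and at most 0.000215 TPM in the controls. As with Eci1, values this near 0 can be failed estimates, and Prkaa1 was not among the genes tested. These 3 genes were chosen after their values were seen, and the part of kidney transcripts in the first 2 was not tested.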
